A study of Mus musculus with 4 samples.

Results

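The chemokine ligand genes were taken by name: every gene called Ccl or Cxcl followed by a number, plus Cx3cl1 and Xcl1. The rule found 44 gene identifiers of 32285 in the deposited matrix, under 38 symbols, because 5 symbols carry more than 1 identifier. Of these, 33 had at least 1 unique molecular identifier (UMI, 1 counted RNA molecule) in the cells kept, and 11 had 0 UMIs in all barcodes: both Ccl21b and both Ccl21c identifiers, Ccl27b, Ccl26, Cxcl15, and the additional copies of Ccl27a, Ccl19 and Ccl21a. Ccl21a, Ccl21b and Ccl21c are near-identical copies, as are Ccl27a and Ccl27b, so how reads were split among them is uncertain. The measurement was single-cell RNA sequencing of dispersed pancreatic islet cells from tamoxifen-treated mice of 5 weeks, NOD per the series title, with 2 samples labelled Xbp1β-/- and 2 labelled Xbp1fl/fl. All 4 samples received tamoxifen, the agent that switches on the Cre recombinase, at 10 mg/ml. The sources used here name neither the promoter that drives Cre nor whether islets of several animals were pooled. All cells stand in 1 matrix whose barcodes end in a suffix from 1 to 4, called library 1 to library 4 below. No source ties a suffix to a sample or a genotype, so no comparison of genotypes was made, no gene was used to assign a library, and no p-value is given.

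Chemokines are small secreted proteins that guide leukocytes through receptors on their surface. Inflammatory ligands such as Ccl2 or Cxcl1 are switched on by stimuli acting through NF-κB or interferons, whereas homeostatic ligands such as Cxcl12, Ccl19 and Ccl21a place cells within tissues. In NOD mice leukocytes enter the islets and the insulin-producing beta cells are lost over time, and chemokines are among the signals studied in that process.

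Many of the genes lie in clusters, shown here because members of a cluster recur together in the results. On chromosome 5 of GRCm38 the neutrophil-attracting Cxcl5, Cxcl3, Cxcl1 and Cxcl2 lie between 90759360 and 90905938, and the interferon-inducible Cxcl9 and Cxcl10 between 92321347 and 92348889. Chromosome 11 holds the monocyte- and eosinophil-attracting Ccl2, Ccl7, Ccl11, Ccl12 and Ccl8 between 82035571 and 82116799, and Ccl5, Ccl9, Ccl6, Ccl3 and Ccl4 between 83525778 and 83664683. On chromosome 8, Ccl22, Cx3cl1 and Ccl17 lie between 94745590 and 94812036. RefSeq's table (GRCm38.p6) had a promoter for 24 of the 33 detected members. In the 250 bases before the start, the NF-κB-type letters GGG, any 3 bases, then TTCC, on either strand, were in 7 of the 24 (29.2%) and in 4.60% of all 27025 promoters. Those 7 were Ccl1, Ccl20, Ccl9, Cxcl1, Cxcl2, Cxcl3 and Cxcl10. The interferon-response-type letters TTTC, any 2 bases, then TTTC were in 3 of the 24 (Ccl19, Cxcl10 and Cxcl14) and in 3.04% of all promoters. The bases just before the start of Cxcl1, Cxcl2, Cxcl3 and Cxcl10 are printed 5′ to 3′ along the gene, with every match of either set of letters in capitals. Cxcl1, Cxcl2 and Cxcl3 share the letters GGGAATTTCCC, which match on both strands, and Cxcl10 has matches of both kinds, the first being the interferon-type one. A match is a description of the letters, not evidence of binding. The stretches lie at chr5:90891125-90891240 (plus strand), chr5:90903779-90903870 (plus), chr5:90785981-90786100 (plus) and chr5:92348890-92349109 (minus), in the order Cxcl1, Cxcl2, Cxcl3, Cxcl10.
Cxcl1: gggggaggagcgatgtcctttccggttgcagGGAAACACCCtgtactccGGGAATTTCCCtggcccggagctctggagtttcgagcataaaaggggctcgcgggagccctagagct
Cxcl2: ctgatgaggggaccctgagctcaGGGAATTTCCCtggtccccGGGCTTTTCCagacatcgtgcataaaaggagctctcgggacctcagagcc
Cxcl3: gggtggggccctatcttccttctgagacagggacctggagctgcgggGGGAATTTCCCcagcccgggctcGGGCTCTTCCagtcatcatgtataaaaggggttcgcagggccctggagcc
Cxcl10: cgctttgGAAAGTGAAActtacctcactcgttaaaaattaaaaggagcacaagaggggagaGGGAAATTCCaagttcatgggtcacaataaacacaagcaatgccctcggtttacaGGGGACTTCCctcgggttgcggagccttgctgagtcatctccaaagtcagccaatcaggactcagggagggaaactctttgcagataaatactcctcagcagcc

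The libraries held 82963911, 178396311, 85266513 and 110800927 UMIs, and 3635, 5268, 3455 and 3788 cells were kept, 16146 in all. Marker genes placed 14657 of them (90.8%) in 8 classes: endocrine, ductal, endothelial, stromal, macrophage, dendritic, T and B cells, each understood as cells carrying those markers ("macrophage-like" and so on). Another 604 cells with markers of more than 1 class and 774 with too few markers stayed out. Between 1 and 9 of the 10 leading genes of each class were its own markers, the fewest in the ductal class and the most in the endocrine class. The libraries differed in composition: endocrine cells were 28.9% and 42.6% of libraries 1 and 3, and 90.8% and 93.4% of libraries 2 and 4. Libraries 2 and 4 accordingly held under 20 ductal, stromal and dendritic cells each, and library 4 also held under 20 T and B cells. Values are given for classes of 20 cells or more unless stated. In total 45 barcode sequences occurred in more than 1 library.

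A level below is in CPM, the UMIs of a gene in a class divided by all UMIs of that class and multiplied by 1000000, with an exact Poisson interval of 95% that covers counting error only. UMIs of different genes were not scaled by length, so levels are compared within a gene. The members gave 367029 UMIs, from 40 for Ccl1 to 68046 for Ccl2, of which 17.4% were in cells with markers of more than 1 class and 3.36% in cells with too few markers. Summed over all members, the level ran from 5331 to 16020 CPM in macrophage-like cells, from 8559 to 13515 in stromal cells and from 10196 to 15439 in dendritic cells. It was 339 to 1964 CPM in endothelial, 463 to 721 in ductal, 607 to 782 in T, 70.0 to 109 in endocrine and 29.97 to 88.0 in B cells. The 3 highest classes did not overlap the other 5 in any library.

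**Figure D1:**
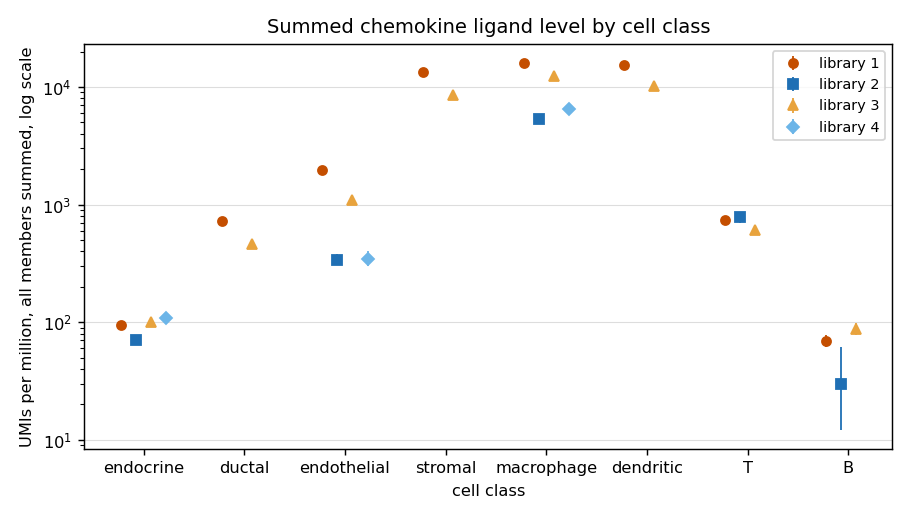
Summed level of all chemokine ligand genes (y axis, CPM on a log scale) in each cell class with 20 cells or more (x axis), 1 point per library with its exact Poisson interval of 95%. Macrophages lie at 5331 CPM or above in every library, and stromal and dendritic cells at 8559 CPM or above in libraries 1 and 3, where they are shown. All other points lie at 1964 CPM or below.

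A class was said to carry a gene when the level, with 10 CPM added, was at least 4-fold above the median of the other classes in every library with enough cells of it. Of the 32 members with 50 UMIs or more, 21 were carried by at least 1 class, against 11.3% of all 17111 genes with as many UMIs. Stromal cells carried 11 members, where the background was 2.63% of genes. Macrophages carried 8 (background 1.5%), dendritic cells 6 (2.3%), T cells 2 (1.12%), and ductal (2.33%) and endothelial cells (2.32%) 1 each. No member was carried by endocrine cells (1.02%) or B cells (0.783%). The rule is one of size alone, with no test behind it, because the libraries have no group. It was applied to unlike sets of libraries. Stromal, dendritic and ductal cells had to pass in libraries 1 and 3, T and B cells in libraries 1 to 3. Macrophages, endothelial and endocrine cells had to pass in all 4. The counts are therefore not ranked between classes, and the closing section gives the macrophage count in libraries 1 and 3 alone.

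**Figure D2:**
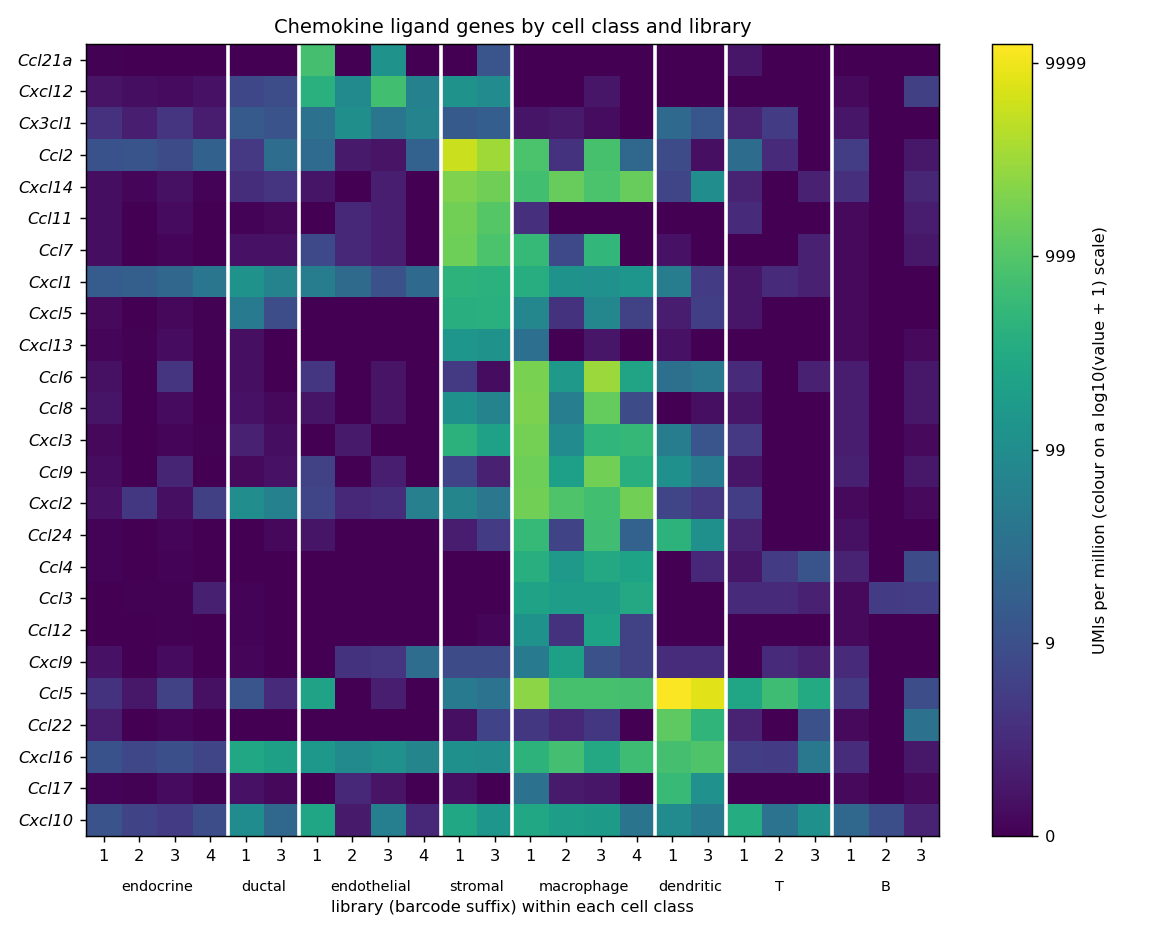
Level of the 25 members that reached 100 CPM in a class of 20 cells or more (rows) by class and library (columns), coloured on a log10(CPM + 1) scale. The bright columns are stromal, macrophage and dendritic cells. In macrophages several rows are bright in libraries 1 and 3 and dark in libraries 2 and 4.

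Stromal cells, which make the extracellular matrix, carried Ccl2, Ccl7 and Ccl11 from the chromosome 11 cluster. Ccl2, the main attractant of monocytes, stood at 5969 CPM in library 1 (149 cells) and at 3255 CPM in library 3 (166 cells), and 74.5% and 65.7% of the cells had a UMI of it. In B cells, which have fewer UMIs per cell (medians of 4133 and 4712 against 26019 and 29222), the share with a Ccl2 UMI was 2.58% and 0.595% in the same libraries. Ccl7, another monocyte attractant, was at 1580.0 and 869.8 CPM, and Ccl11, which attracts eosinophils, at 1714 and 1054 CPM. Ccl11 was held almost wholly by these cells: 80.1% of its UMIs were in the stromal class and 18.9% in cells with markers of more than 1 class. Of the stromal cells with a Ccl7 UMI, 92.3% and 95.5% also had a Ccl2 UMI. Those cells with both had medians of 34122 and 35514 UMIs, above the 10884 and 21757 of the rest. The 17 and 19 stromal cells of libraries 2 and 4 gave Ccl2 at 2789 and 3268 CPM, but 1 cell supplied 86.2% and 62.4% of those UMIs.

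The CXC ligands of stromal cells were the neutrophil attractants and the tissue ligands Cxcl12, Cxcl13 and Cxcl14. Cxcl1 stood at 451 and 414 CPM, Cxcl5 at 383 and 407 CPM and Cxcl3 at 434 and 223 CPM in libraries 1 and 3. Cxcl14, a ligand made by many epithelia and fibroblasts, was at 1998 and 1655 CPM. Cxcl12, which retains leukocytes through Cxcr4, was at 125 and 95.2 CPM. Cxcl13, the attractant of B cells, was at 141 and 123 CPM, but only 4.03% and 3.61% of stromal cells had a UMI of it and 1 cell gave 55.8% and 68.0% of them. Ccl8, at 113 and 66.4 CPM, and Cxcl2, at 71.4 and 41.6 CPM, complete the members carried. A class that carries a gene need not be the highest for it. Macrophages had Ccl8 at 1935 CPM in library 1, Cxcl2 at 731 CPM or more in every library and Cxcl3 at 1778 CPM in library 1. Endothelial cells had Cxcl12 at 716 CPM in library 3. None of 15 members differed at least 4-fold between libraries 1 and 3 with 10 CPM added, where the background was 0.083% of genes. These counts depended on how stromal cells were chosen. With cells of 2 classes kept 6 members were carried and 11 ranged, and with Leiden clusters 7 were carried and 9 ranged. The share of all genes is not given for these choices, so these counts have no background beside them. Ccl11, Ccl2, Ccl7, Cxcl1, Cxcl14 and Cxcl5 were among the carried members under each of these choices, while Cxcl2 was also lost when the highest cell was left out. Ccl19, a ligand of Ccr7, stayed under 100 CPM at 45.4 and 18.8 CPM, and the stromal class held 73.6% of its UMIs. Most of the class carried Pdgfra and related fibroblast genes (126 and 136 cells), and in them Ccl2 was at 6259 and 3526 CPM.

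Macrophages carried Ccl3, Ccl4, Ccl5, Ccl6, Ccl9, Cxcl14, Cxcl2 and Cxcl3 in all 4 libraries, with 161, 85, 139 and 38 cells. Ccl3, which attracts monocytes and macrophages, was at 231, 199, 201 and 293 CPM from library 1 to library 4. Ccl4, a close relative of Ccl3, was at 382, 162, 294 and 241 CPM. Cxcl2, which attracts neutrophils, was at 1679, 927, 731 and 1701 CPM. The levels of Ccl3 differed little among the libraries, and those of Ccl4 and Cxcl2 by under 3-fold. The macrophage class held 76.5%, 81.5% and 55.9% of the UMIs of these 3 genes. Of the macrophages with a Ccl4 UMI, 64.5% to 74.0% also had a Ccl3 UMI. This share was not set against that of all macrophages or against the UMIs per cell.

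A second set of macrophage ligands was high in libraries 1 and 3 and low in libraries 2 and 4. Ccl2 stood at 858, 3.01, 807 and 23.4 CPM from library 1 to library 4, the second value resting on 3 UMIs with an interval of 0.621 to 8.8. Ccl8, a further monocyte attractant, was at 1935, 56.2, 1327 and 7.79 CPM. Ccl7 was at 549.8, 7.03, 508.5 and 0 CPM, and the 0 in library 4 allows a level of up to 7.79 CPM. The genes of this set were grouped by that order of the libraries. Of the 6444 genes at 20 CPM or more in macrophages of a library, 30.4% also had libraries 1 and 3 both above libraries 2 and 4. Ccl12, a relative of Ccl2, was at 119.9, 3.01, 239 and 5.19 CPM. Ccl24, which attracts eosinophils, was at 560.2, 6.02, 692 and 18.2 CPM. Ccl6 and Ccl9, ligands of Ccr1, had the same order, and neither fell near 0 in any library. Ccl6 was at 1898, 159.6, 2999 and 249.3 CPM. Ccl9 was at 1539.6, 205, 1703 and 366 CPM, and 83.9%, 40.0%, 82.7% and 65.8% of macrophages had a UMI of it.

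Cells differed in depth, with medians of 15603, 11808, 17820 and 9136 UMIs per macrophage, so the shares were also computed at 2000 UMIs per cell, which 154, 83, 128 and 38 of the cells had. Without thinning, 65.2%, 3.53%, 56.1% and 10.5% of macrophages had a Ccl2 UMI. At 2000 UMIs the expected shares were 44.2%, 0.287%, 35.2% and 3.68%. For Ccl6 they were 56.4%, 14.2%, 60.3% and 17.2%. The order of the libraries was thus the same at equal depth for Ccl2 and Ccl6, the members for which these shares are given.

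Cxcl14 and Cxcl16 had the opposite order in macrophages. Cxcl14 stood at 734, 1382, 883.5 and 1423 CPM, and Cxcl16, a membrane-bound ligand of Cxcr6, at 453, 762, 298 and 675 CPM. These differences were under 3-fold, and most macrophages had a UMI of each: 77.0% to 92.9% for Cxcl14 and 81.3% to 97.4% for Cxcl16.

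The remaining macrophage members rested on few cells in some library. Ccl5, which attracts T cells and monocytes, was at 2442, 804, 817 and 771 CPM, and in library 4 a single cell gave 73.7% of its UMIs, the level being 209 CPM without it. Cxcl3 was at 1778, 93.3, 506 and 529.7 CPM, with 62.3% of the library 4 UMIs in 1 cell. Cxcl1 was at 355, 127, 116 and 140.2 CPM, and Cxcl5 at 79.0, 3.01, 77.3 and 5.19 CPM. Cxcl10 and Cxcl9, the interferon-inducible ligands of Cxcr3, were at 290.4, 201, 168 and 36.4 CPM and at 49.1, 212, 9.25 and 5.19 CPM. One cell supplied 77.3% of the Cxcl9 UMIs of library 2, and without it Cxcl9 was at 48.9 CPM. Few macrophages had UMIs of both ligands: 5 of the 49 with Cxcl10 in library 1 also had Cxcl9, and 2 of 28 in library 3. Cxcl9 itself was low in these libraries, at 49.1 and 9.25 CPM. The overlap was not set against the share of all macrophages with Cxcl9, so it does not show that the ligands lie in separate cells.

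**Figure D3:**
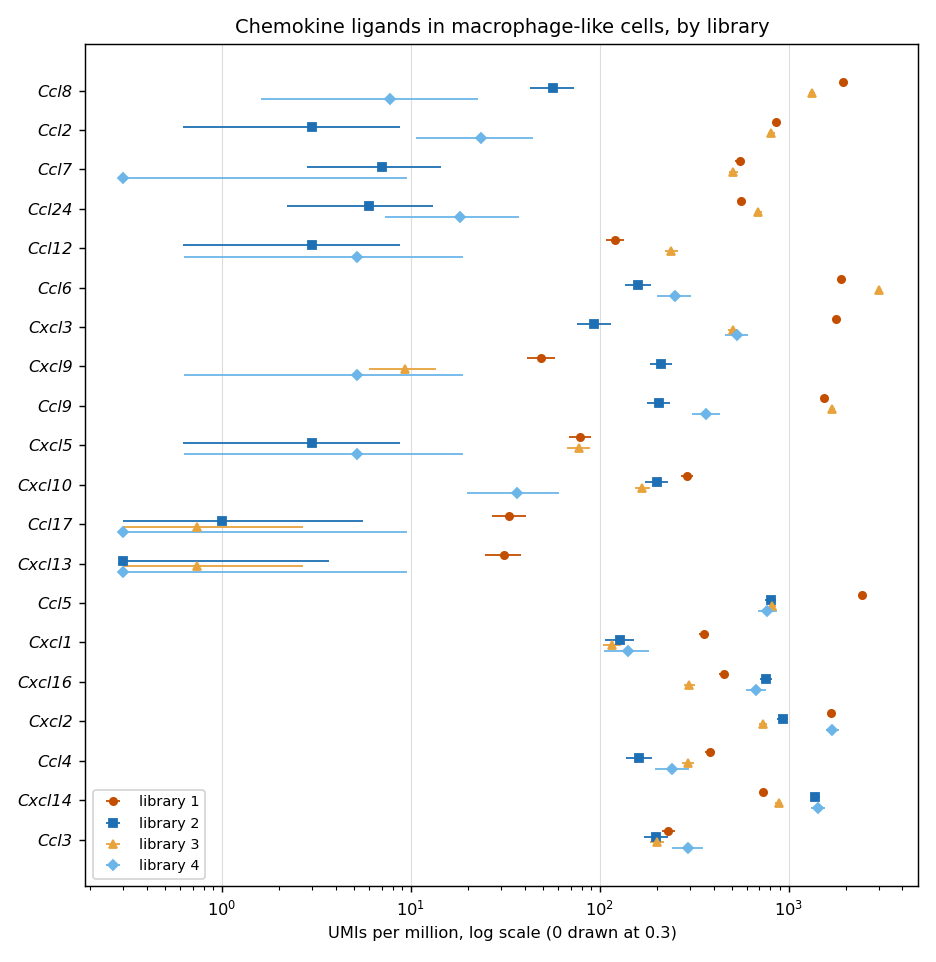
Levels of the 20 members that reached 20 CPM in macrophage-like cells of a library (rows, ordered by their range) with exact Poisson intervals of 95% (x axis, CPM, log scale). Ccl8, Ccl2, Ccl7, Ccl24 and Ccl12 show libraries 1 and 3 at 119.9 CPM or more and libraries 2 and 4 at 56.2 CPM or less, while the 4 libraries lie close together for Ccl3, between 199 and 293 CPM.

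Over the 20 members that reached 20 CPM in macrophages of a library, 13 differed at least 4-fold between the highest and the lowest library, with 10 CPM added, where the background was 3.86% of the 6444 genes as abundant. The 13 were Ccl12, Ccl17, Ccl2, Ccl24, Ccl6, Ccl7, Ccl8, Ccl9, Cxcl10, Cxcl13, Cxcl3, Cxcl5 and Cxcl9. Ccl17 and Cxcl13 reached 33.2 and 31.0 CPM in library 1, where 1 cell gave 71.1% and 83.3% of their UMIs, and neither passed with the highest cell of each library left out. The median range of the 20 members was 6.66-fold, against 1.49-fold for all those genes. Libraries 1 and 3 were both above libraries 2 and 4 for 11 of the 20 members (55.0%) and for 30.4% of all genes. They were both below for 2 members and for 27.4% of genes. The median share of Ins2 UMIs per macrophage was 0.0463% and 0.0621% in libraries 1 and 3, and 1.17% and 0.573% in libraries 2 and 4. Summed macrophage markers were at 12835, 15415, 11985 and 12542 CPM, and 10 of 10 were above 0 in each library. Dendritic cell markers (11 genes) summed to 686, 100.4, 599 and 54.5 CPM in the macrophages, with 8, 7, 7 and 4 of them above 0. Stromal markers (10 genes) summed to 11.8, 0, 18.5 and 2.60 CPM, with 7, 0, 6 and 1 above 0. The part of these differences in the chemokine levels was not tested.

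Dendritic cells, which carry antigen to T cells, held most of the Ccl5, Ccl22 and Ccl17. Ccl5 stood at 11986 CPM in library 1 (134 cells) and 8248 CPM in library 3 (169 cells), and 98.5% and 94.7% of these cells had a UMI of it, against 2.12% and 1.59% of B cells. The B cells had fewer UMIs per cell, with medians of 4133 and 4712 against 11561.5 and 10961. Ccl5 made up 77.6% and 80.9% of all member UMIs of the class, so that its summed level is largely that of 1 gene. Ccl22, a ligand of Ccr4, was at 1202 and 489 CPM with a UMI in 85.8% and 61.5% of cells. Ccl17, the other Ccr4 ligand, was at 605 and 119 CPM with a UMI in 43.3% and 21.3% of cells. Both Ccr4 ligands were thus higher in library 1. Of 12 members in dendritic cells, Ccl17, Cxcl1 and Cxcl14 differed at least 4-fold between libraries 1 and 3 with 10 CPM added, where the background was 0.197% of genes. Nearly all cells with a Ccl17 UMI had a Ccl22 UMI too, 98.3% and 94.4%. Cxcl16 was at 790.0 and 929 CPM, in 97.8% and 99.4% of cells.

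Most dendritic cells, 115 and 138, carried Fscn1 and related genes of migratory dendritic cells. Fscn1 is itself among the markers of the dendritic gate, with Apol7c, Nudt17, Serpinb6b and Slco5a1, so this majority was partly set by the gate. The levels given for dendritic cells describe the cells so chosen. In the cells with Fscn1 and related genes, Ccl22 was at 1289.9 and 530.5 CPM and Ccl17 at 680.4 and 139 CPM. The 31 other dendritic cells of library 3 gave Ccl22 at 245 CPM and Ccl5 at 6240.5 CPM. Ccl24 and Ccl9 also passed the size rule in dendritic cells, but few cells stood behind them: 85.9% of the Ccl24 UMIs and 62.7% of the Ccl9 UMIs of library 1 came from 1 cell. Without that cell Ccl24 was at 65.6 instead of 441 CPM and Ccl9 at 44.7 instead of 113 CPM, and with the highest cell of each library left out Ccl9 no longer passed. Cxcl14 reached 103 CPM in library 3 through a single cell, without which it was at 0 and did not pass the 4-fold range. In the 19 dendritic cells of library 2, Ccl5 was at 4301 CPM and Ccl22 at 422 CPM.

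T cells carried Ccl5 and Xcl1. Ccl5 stood at 257, 671 and 317 CPM in libraries 1 to 3 (179, 57 and 143 cells), with a UMI in 15.6%, 22.8% and 12.6% of cells. Xcl1, which attracts cross-presenting dendritic cells, was at 55.2, 44.4 and 80.2 CPM and had UMIs in 4.20% to 12.3% of T cells, and its level in the next class was at most 0.564 CPM. One cell gave 83.3% of the Xcl1 UMIs of library 3, where the level without it was 13.9 CPM. With the highest cell of each library left out, T cells carried Ccl5 and no longer Xcl1, and with cells of 2 classes kept they carried 0 members. Cxcl10 was at 345, 35.5 and 112 CPM in T cells, and 58.2% of its library 1 UMIs came from 1 cell, without which it was at 146 CPM. It was the 1 member of 6 that passed the 4-fold range in T cells, where the background was 1.68% of genes.

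B cells held little of any member. Summed, the members stood at 69.7, 29.97 and 88.0 CPM in libraries 1 to 3 (660, 29 and 504 cells), and 22.4%, 17.2% and 20.4% of B cells had a UMI of any member. Ccl25, a ligand of Ccr9, was at 17.2, 17.1 and 14.1 CPM. Ccl22 was at 0.264, 0 and 34.3 CPM, the 0 allowing up to 12.8 CPM. In library 3 the Ccl22 UMIs were in 0.992% of B cells. Ccl22 was the 1 member of 2 that passed the 4-fold range in this class, where the background was 1.65%, and it did not pass with the highest cell of each library left out.

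Endothelial cells carried Cxcl12, at 395, 86.3, 716 and 62.8 CPM in libraries 1 to 4 (144, 101, 146 and 74 cells). Cx3cl1, a membrane-bound ligand that holds cells bearing Cx3cr1 to the vessel wall, had another order, at 32.5, 109, 39.6 and 68.4 CPM, with a UMI in 15.3%, 50.5%, 20.5% and 25.7% of cells. Libraries 1 and 3 were thus the higher for Cxcl12 and the lower for Cx3cl1. Cxcl16 was at 155, 86.3, 117 and 72.1 CPM. Ccl21a, the Ccr7 ligand that lymphatic vessels make, was found in 7 cells of library 1 (785 CPM) and 2 cells of library 3 (121 CPM). It was at 0 in libraries 2 and 4, which allows up to 2.94 and 5.55 CPM. Those 7 and 2 cells had UMIs of the lymphatic gene Prox1 in every case, at 602 and 1153 CPM, where the other endothelial cells of the same libraries had 15.7 and 25.9 CPM. The lymphatic genes were looked at after the Ccl21a cells had been seen.

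In endothelial cells 5 of 10 members passed the 4-fold range, where the background was 3.32% of genes: Ccl21a, Ccl5, Cxcl10, Cxcl12 and Cxcl2. With the highest cell of each library left out, 3 passed: Ccl21a, Cxcl10 and Cxcl12. In library 1, 92.6% of the Ccl5 UMIs and 58.6% of the Cxcl10 UMIs came from 1 cell, and without it the levels were 16.9 instead of 225 CPM and 106 instead of 254 CPM. In library 4, 93.8% of the Cxcl2 UMIs came from 1 cell. The median range was 4.78-fold for the members and 1.42-fold for all genes of the class.

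Ductal cells, the lining of the pancreatic ducts, were measured in libraries 1 and 3 (440 and 209 cells). Cxcl16 was at 276 and 217 CPM, with a UMI in 86.1% and 78.5% of cells, and gave 38.3% and 46.8% of the member UMIs of the class. Cxcl1 was at 122 and 66.2 CPM and Cxcl2, the member these cells carried, at 101 and 63.3 CPM. Cxcl10 was at 96.0 and 23.7 CPM, and Cxcl5 at 48.8 and 8.38 CPM. In library 3 a single cell gave 53.2% of the Cxcl2 UMIs, and with the highest cell of each library left out, or with cells of 2 classes kept, ductal cells carried 0 members. Cxcl17, a mucosal ligand with 127 UMIs in all, had 48.0% of them in ductal cells, at 2.39 and 5.93 CPM. Library 1 was the higher for each ductal member named so far except Cxcl17. Ccl2 was also higher in library 3, at 28.2 CPM against 3.73 CPM in library 1. None of 6 members tested passed the 4-fold range (background 0.016%).

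Endocrine cells held low levels of the epithelial ligands Ccl27a, Ccl28 and Ccl25. Ccl27a, a ligand of Ccr10, stood at 20.1, 12.5, 23.0 and 12.4 CPM in libraries 1 to 4 (1051, 4784, 1471 and 3538 cells), and 88.0% of its UMIs were in this class. Ccl28, which shares that receptor, was at 7.52, 3.03, 6.78 and 4.66 CPM with 90.6% of its UMIs here. Summed over the libraries, the class also held most UMIs of all genes. It had 36295855, 169037934, 52494965 and 107220910 UMIs, and the whole libraries 82963911, 178396311, 85266513 and 110800927. A large share of a gene's UMIs in this class is thus not by itself particular to that gene. Ccl25 was at 9.23, 7.13, 9.53 and 7.38 CPM. Of the 2 members that reached 20 CPM in endocrine cells, Ccl27a and Cxcl1, none differed at least 4-fold between libraries (background 0.282%). Libraries 1 and 3 were above libraries 2 and 4 for all 3 genes on this scale. Hormone genes took 37.5%, 54.3%, 37.1% and 51.9% of the endocrine UMIs, and with them left out of the total Ccl27a was at 32.1, 27.2, 36.5 and 25.8 CPM and Ccl28 at 12.0, 6.63, 10.8 and 9.70 CPM, in the same order of the library pairs. Ccl25 was then at 14.8, 15.6, 15.1 and 15.3 CPM, and libraries 1 and 3 no longer lay above libraries 2 and 4.

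The endocrine ligands differed by hormone. In delta cells, which make somatostatin, Ccl27a was at 34.6, 30.3, 37.3 and 24.7 CPM and in beta cells at 17.9, 10.9, 18.2 and 10.4 CPM. Ccl28 was at 17.3, 18.7, 13.7 and 17.9 CPM in delta cells and at 6.02, 2.25, 5.41 and 3.71 CPM in beta cells. The delta cells were above the beta cells in each library for both genes. Hormone genes took 41.4% to 57.9% of beta cell UMIs and 26.5% to 29.8% of delta cell UMIs. With them left out of the total, Ccl27a was at 47.1, 42.6, 50.8 and 35.2 CPM in delta cells. In beta cells Ccl27a was then at 30.6, 25.9, 31.1 and 23.9 CPM. Ccl28 was then at 23.5, 26.3, 18.6 and 25.5 CPM in delta cells and 10.3, 5.36, 9.22 and 8.54 CPM in beta cells. The delta cells stayed the higher, by smaller factors. Cx3cl1 was at 10.5, 7.47, 12.8 and 6.81 CPM in delta cells and at 11.7, 6.60, 8.98 and 5.64 CPM in glucagon-making alpha cells, and at most 0.778 CPM in beta cells. Ccl25 was highest in alpha cells, at 20.4, 17.5, 14.9 and 17.2 CPM. Cxcl16 was at 11.2, 7.02, 10.6 and 6.83 CPM in beta cells. The hormone classes hold cells in which 1 hormone dominates, and the beta cells numbered 524, 3201, 675 and 2173.

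**Figure D4:**
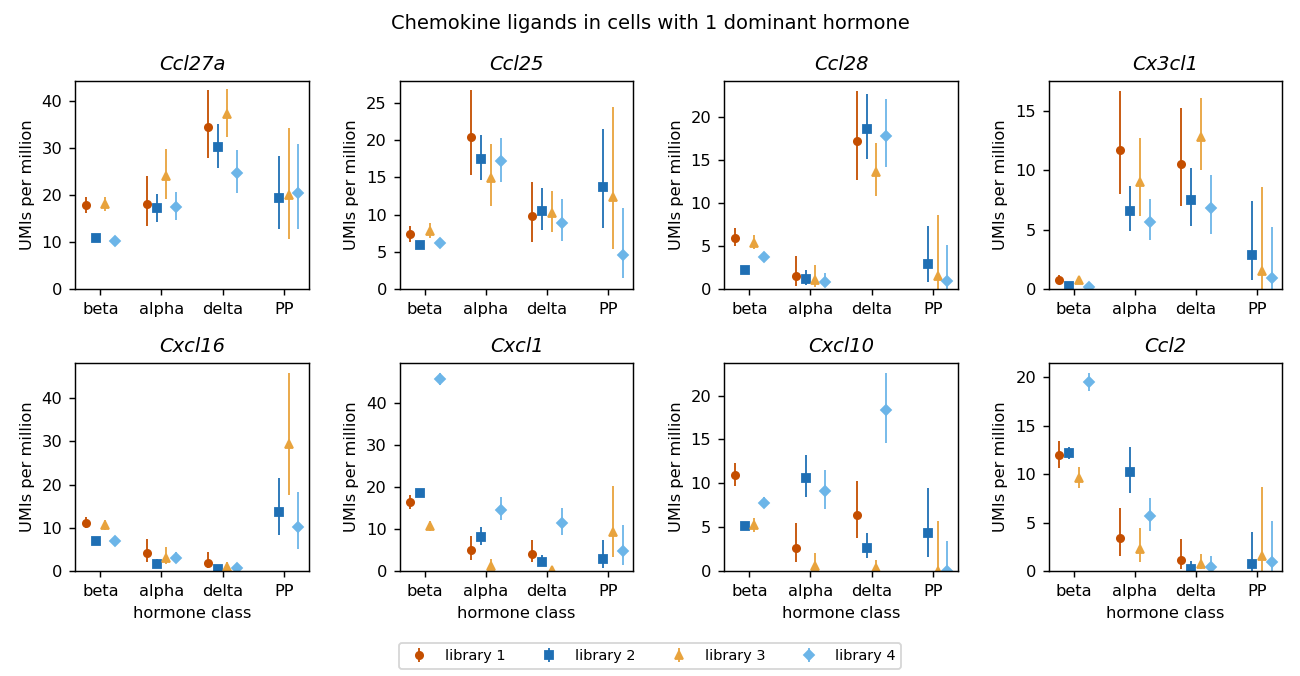
Levels of 8 members (panels; y axis, CPM, with exact Poisson intervals of 95%) in cells with 1 dominant hormone (x axis), 1 point per library for groups of 20 cells or more. Ccl27a and Ccl28 lie higher in delta than in beta cells in all 4 libraries, Cx3cl1 lies near 0 in beta cells, and Cxcl1 in beta cells reaches 45.7 CPM in library 4.

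In beta cells the inflammatory ligand Cxcl1 was at 16.4, 18.6, 10.7 and 45.7 CPM, Ccl2 at 11.9, 12.2, 9.63 and 19.5 CPM and Cxcl10 at 10.9, 5.12, 5.19 and 7.81 CPM. The highest 1 in 100 of the beta cells gave 54.5%, 89.6%, 72.7% and 56.8% of the Cxcl1 UMIs, and 60.1%, 97.1%, 78.7% and 88.8% of the Ccl2 UMIs. They gave 44.2%, 78.4%, 70.7% and 74.5% of the Cxcl10 UMIs. For Ccl27a the same share of cells gave 5.73% to 9.67%. Without the beta cells that had 2 or more markers of another class, Cxcl1 was at 13.1, 17.7, 11.8 and 49.0 CPM and Ccl2 at 14.4, 9.98, 10.2 and 20.2 CPM. Beta cells with 5 or more Cxcl1 UMIs numbered 16, 50, 12 and 101. Ccl20, the ligand of Ccr6, had 84.2% of its 745 UMIs in endocrine cells, the class that held most UMIs of all genes. Its level there was 1.38, 1.02, 0.952 and 3.31 CPM, below the 6.97 CPM in the ductal cells of library 1. Ccl1, the remaining member, had 40 UMIs, of which 82.5% were in cells with too few markers.

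Of 19 chemokine receptor genes, the partners of these ligands, 13 had 50 UMIs or more. Those carried by macrophages included Ccr1, Ccrl2 and Cx3cr1, and those carried by dendritic cells were Ccr7 and Ccrl2. T cells carried Ccr2, Ccr7, Cxcr3 and Cxcr6, B cells Ccr6 and Ccr7, and the other 4 classes none. Ccr7, the receptor of Ccl19 and Ccl21a, was at 2523 and 2795 CPM in dendritic cells of libraries 1 and 3. Cxcr6, the receptor of Cxcl16, was at 129.8, 79.95 and 174 CPM in T cells of libraries 1 to 3, and Cxcr3, the receptor of Cxcl9 and Cxcl10, at 85.0, 199.9 and 46.8 CPM. Ccr1 in macrophages was at 162, 123, 142 and 122 CPM and did not pass the 4-fold range. Cx3cr1 was at 30.3, 110.4, 35.9 and 72.7 CPM in the same cells. Cxcr4, the receptor of Cxcl12, was at 41.5, 472, 29.1 and 348 CPM in endothelial cells, so that libraries 1 and 3 were the lower for Cxcr4 and the higher for Cxcl12. It was at 83.1 to 131 CPM in macrophages, 99.9 and 182.5 CPM in dendritic cells, 136 to 160.4 CPM in T cells and 141 to 261 CPM in B cells. Ccr9 was at 14.9, 2.22 and 122 CPM in T cells, and Cxcr5 at 52.8, 21.4 and 41.0 CPM in B cells. Among 4 atypical receptors, which bind ligands without signalling through G proteins, 3 had 50 UMIs or more. Ackr3 was carried by endothelial cells at 122, 107, 78.1 and 135 CPM. Ackr1, a marker of venules, was at 413, 21.6, 390.3 and 22.2 CPM in the same cells and passed the 4-fold range there, as did Cxcr4.

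Genes known to respond to NF-κB or to interferon gamma were set beside the ligands. Of the 14 interferon-gamma-response genes, all had 50 UMIs or more, and 7 of the 13 at 20 CPM or more passed the 4-fold range in macrophages (3.86% of all genes), with 7 of 13 in endothelial cells (3.32%). Iigp1, an interferon-inducible GTPase, was at 269.6, 14.7, 203 and 27.7 CPM in endothelial cells, high in libraries 1 and 3 as Cxcl12 and Ackr1 were. Dendritic cells carried 7 of the 14, against 2.3% of all genes, and no other class carried more than 1. Of the 16 NF-κB-response genes, 1 of 15 passed the range in macrophages, against the same 3.86%: Il1b, at 480, 971, 62.5 and 1078 CPM, whose lowest library was library 3. In endothelial cells 3 of 14 passed, against 3.32%: Icam1, Vcam1 and Sele. Vcam1, which holds leukocytes to the vessel wall, was at 230, 9.81, 230 and 1.85 CPM there. Of 6 genes that cut or bind chemokines, stromal cells carried Mmp9 and Mmp2, ductal cells Sdc4, and the other 6 classes none.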

How the data were processed

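Single-cell RNA libraries of dispersed islet cells were analysed from the matrix of UMI counts that the authors deposited for the whole series. The counts are whole numbers per gene and barcode, made with Cell Ranger 6.1.2 and the mm10 build per the submitters' processing notes, with no further settings named. Cells with at least 500 genes and at most 20% mitochondrial UMIs were kept. A cell joined a class with 4 or more distinct markers of it (5 for ductal) or with hormone genes at 10% of its UMIs or more. Cells of more than 1 class were left out, which stands in for a doublet caller, and 264 kept cells had hormones between 7 and 13% of UMIs. The thresholds, and the splits of endocrine, stromal and dendritic cells, were set after the data had been seen, as were the members and lists, which were chosen with earlier results of these data known.

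Counts were summed per class and library and given as CPM with exact Poisson intervals, shares of cells with exact Clopper-Pearson intervals, and a 0 as 3 counts of the total; all cover counting error only. Members at 100 CPM or more in a class of 20 cells were described by library, the others by range, and receptors at 50 CPM or more were named. Expected shares at 2000 UMIs per cell were computed from the hypergeometric distribution. The filter, the gate, the total, the added 10 CPM and the libraries used were varied, with effects given in the closing section. The size rule for genes carried by a class was tested on simulated Poisson counts that held no spread between cells. The 4-fold range rule was not tested in this way. Of the detected members 10 overlap a gene on the other strand (Ccl2, Cxcl10, Cxcl16, Ccl25 and Ccl6 among them), and no source says whether counting used strand. The labels give no library for a sample, so the libraries were never grouped by genotype and were treated as single samples without replicates. Positions are from GENCODE M21 (GRCm38), in which all 44 identifiers were found. Python 3.11.15, numpy 2.4.6, pandas 2.3.3, scipy 1.17.1, scanpy 1.11.5 and matplotlib 3.10.9 were used. Some genes of the receptor and response lists are not reported here.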

Additional observations from a re-analysis of the deposited data

Results flagged for a closer look

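Cells outside the 8 classes showed Ccl2 above every class of 20 cells or more in the same library. The 93 cells of library 2 with markers of more than 1 class had Ccl2 at 61.3 CPM, where the highest class was at 10.7 CPM. The 65 cells of library 2 with too few markers had it at 535 CPM, from 11 cells with a UMI, and 42.7% of the 279 UMIs came from 1 cell. In library 4 the 68 cells with too few markers had Ccl2 at 1090.5 CPM, from 13 cells, where the highest class, the macrophages, was at 23.4 CPM. The same 68 cells had Cxcl1 at 147 CPM against 140.2 CPM in macrophages, with 40.3% of the UMIs in 1 cell. Stromal cells of these libraries, at under 20 cells each, are not among the classes set beside them.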

How the results depend on the processing

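The counts of members carried by a class or ranging between libraries were recomputed under each alternative, and 186 of 223 stayed within 1.5 times the value given. The counts below come without the share of all genes under the same alternative. They describe how the calls depend on the processing and are not read as results about the members. With cells of 2 classes kept, carried members were 0 in ductal, 6 in stromal and 0 in T cells, and ranging members 4 in ductal, 12 in endothelial, 11 in stromal, 6 in T and 4 in B cells. With 1 marker more, 1 ductal member ranged. With Leiden clusters in place of the gate, 7 members were carried by stromal and 3 by dendritic cells, and 3 ductal, 9 stromal, 10 dendritic and 3 T cell members ranged. With cells weighted equally, T cells carried 1 and B cells had 0 ranging. With 1 CPM added, endocrine cells carried 2, ductal 3, endothelial 2 and macrophages 13, and 2 ductal, 8 endothelial, 3 T and 2 B cell members ranged. Leaving out each library in turn gave 1 to 2 carried by ductal cells, 0 to 1 ranging in T cells (0 without library 1 or 2), 0 to 1 in B cells (0 without library 3) and 11 to 13 in macrophages. Alternatives chosen after seeing the data gave 2 carried by endothelial cells and 15 by macrophages in libraries 1 and 3 alone, 2 by endothelial cells in libraries 2 and 4 alone, and 6 by stromal cells at a minimum of 10 cells. The causes were not tested. Leaving out the highest cell, also chosen after seeing the data, gave 0 carried by ductal and 1 by T cells, and 3 endothelial and 0 B cell members that ranged, and moved 24 of 105 levels by over 1.5-fold. No paired analysis was possible because no source ties a library to a sample or replicate number. Classes of few cells limit what libraries 2 and 4 can show.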
